A study of Danio rerio with 9 samples.

Results

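Transcripts of the adult zebrafish inner ear were compared between fish killed 4 days after sound exposure (Day 4) and fish that were not exposed (controls). The Day 4 fish had been kept in a chamber with a loud low-frequency tone and then left to recover, and the controls had been placed in the same chamber with the sound off. Each group was 1 pool of RNA from both whole ears (saccule, lagena, utricle and semicircular canals) of 18 to 20 fish, labeled with Cy3 and hybridized to 3 oligonucleotide arrays. No strain, genotype or age is given in the labels, and the sources used here do not say at what time of day the ears of each group were taken. The members of the comparison were the probes whose spots were well above background on every Day 4 array or on every control array, which left 9771 of 21495 probes on 6 of the 9 arrays of the series. Of these, 8032 were measured on all arrays of both groups, 1732 on all control arrays only and 7 on all Day 4 arrays only.

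The sensory patches of the fish ear hold hair cells, which turn movement into nerve signals, and supporting cells, from which new hair cells can form after damage. The dissected organ also holds cartilage and matrix around the canals, otoliths, blood vessels, resident macrophages and the ends of the auditory nerve. Most zebrafish tissues carry a circadian clock of their own. In this clock Clock and Bmal proteins activate transcription, and the Per and some Cry proteins repress that activation. Rev-erb receptors (nr1d genes) repress the bmal genes.

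The 3 arrays of a group carried the same RNA, so the P-values rest on the spread of repeat hybridizations and say nothing of the spread among fish. Signals are given as log2 values relative to the 75th percentile of the array, and a log2 fold change is that of Day 4 over control, from a model with group and slide fitted to all 9 arrays. A probe was called significantly regulated when its fold change was at least 1.4 and its P-value, adjusted by Benjamini-Hochberg over all tested probes, did not exceed 0.05. All adjusted P-values are from limma. Arrays with the same scan date in the scanner headers were taken as 1 slide, and no slide identifier was read. On this reading slide 1 held replicate 1 of both groups and slide 2 held control replicate 2. Slide 3 held Day 4 replicates 2 and 3 with control replicate 3. A slide in this text is thus a scan date, and the layout is inferred. The study's methods instead place a replicate of each group on every slide, and the 2 sources were not reconciled. With replicate number in place of slide 670 probes were significantly regulated. Between 39.5% and 53.6% of spots were well above background on the Day 4 arrays and between 47.3% and 55.8% on the control arrays. The arrays of slide 3 had a median local background of 129 to 153.5 intensity units, against 69.5 and 72 for Day 4 and control on slide 1. Day 4 replicate 1 stood apart from the other Day 4 arrays, and 1174 probes were significantly regulated without it. Without control replicate 3, the only control on slide 3, there were 326.

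In all, 582 probes (5.96% of those tested) were significantly regulated on Day 4, with 283 higher (2.9%) and 299 lower (3.06%). Without adjustment of the P-values there were 734. Among the 8032 probes measured in both groups 392 were called (4.88%), with 255 higher (3.17%) and 137 lower (1.71%). The remaining 162 lower probes and 22 of the higher ones were well above background on all control arrays but not on all Day 4 arrays. Probes of this kind, 1732 in all, entered through their control signal alone. A fall given below as a bound is therefore not counted as support for the fall of a list. Some of the 22 passed on 2 Day 4 arrays but none on all of them, so their level on Day 4 was not fully measured. No bound on the fold change is given for them. The direction of the total therefore depends on the probes near background, and it also depends on scaling: the higher share was 48.6% here, 62.1% with arrays scaled at the 50th percentile and 33.3% with arrays scaled to the spike-in controls. The median log2 fold change over all tested probes was -0.0028, 0.09 and -0.14 under these 3 scalings. With a normexp background correction only 2 probes stayed significantly regulated, while 195 passed without adjustment.

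**Figure D1:**
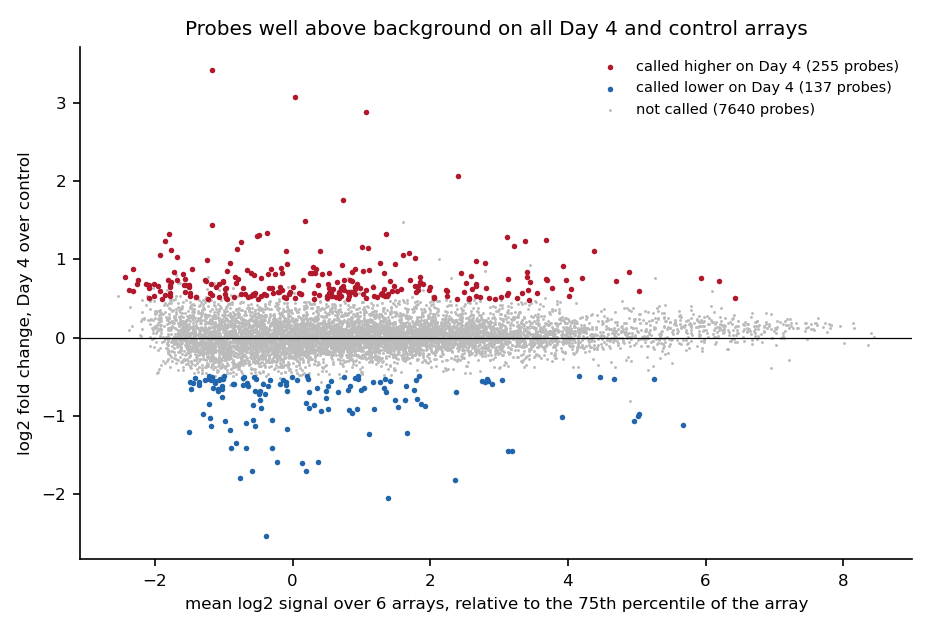
Log2 fold change (Day 4 over control) against mean log2 signal for the 8032 probes well above background on all 6 arrays, 1 point a probe. The 255 probes called higher (red) and the 137 called lower (blue) occur in every quartile of signal, and most lie within 1 log2 unit of 0. They are more frequent at low signal. The lowest quartile holds 84 higher and 55 lower, the highest 49 and 19.

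Most changes were modest. Of the probes measured in both groups, 30 of the 255 higher ones and 31 of the 137 lower ones changed at least 2-fold. The median size of the log2 fold change was 0.65 for the higher and 0.67 for the lower probes. The Day 4 arrays lay entirely apart from the control arrays for 281 of the 283 higher and 297 of the 299 lower probes. This separation was found for 42.2% of all tested probes and for 43.3% of those measured in both groups, so that it does not by itself set the called probes apart. All 283 higher and all 299 lower probes had the same sign within slide 1, where 1 Day 4 array met 1 control array, and within slide 3. The probes were called from these same arrays with slide in the model, so this agreement is largely built in. It is no separate support for the calls. Of 57 tested probes for transcripts listed in the tables of the study's paper, 44 were called, and these are otherwise left out below. Among 72 genes with a called probe and at least 1 other probe measured in both groups, the probes had the same sign for 60 and all were called for 31. None was called in both directions. Some probes of a gene overlap or lie at the same position, so they are not separate evidence.

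**Figure D2:**
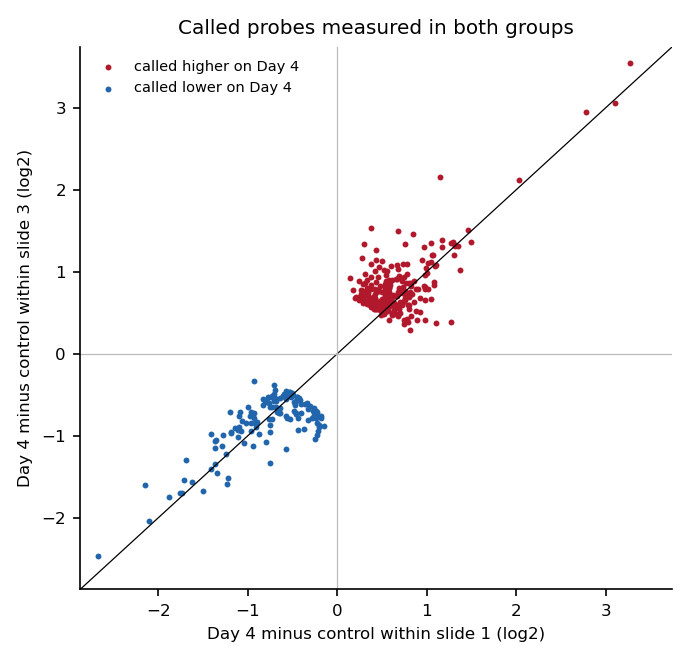
Difference in log2 signal between Day 4 and control within slide 1 (x axis) and within slide 3 (y axis) for the 392 called probes measured in both groups. All points lie in the lower left or upper right of the plot, and the line marks equal differences. The probes were called from these same arrays, so the agreement in sign is largely built in.

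Counts of called genes in a list stand beside 3.17% higher and 1.71% lower of all probes measured in both groups. Among lists with at least 5 genes measured in both groups, that of clock output and repression had the highest median. Of its 11 genes 7 rose and 1 fell, with a median log2 fold change of 0.68, against 0.018 over all probes measured in both groups. The list holds 2 genes of the paper's tables, which are not named here, and its largest value (3.075) is from these. The largest rise among genes outside the paper's tables was that of cry2 (cry3 in the array design), a member of the cryptochrome family. Its signal was 0.92, 2.01 and 2.00 on the Day 4 arrays, against -0.23, -0.13 and -0.15 on the control arrays. The Day 4 arrays were all higher, but replicate 1 lay well below replicates 2 and 3. The log2 fold change was 1.76 (SE 0.25, adjusted P = 0.00716), with 1.15 within slide 1 and 2.15 within slide 3, and the call was lost without control replicate 3 (1.57). For nr1d2b, which encodes a Rev-erb receptor, the signal was 4.25, 4.37 and 4.29 on the Day 4 arrays and averaged 3.07 ± 0.039 in controls (SD, n = 3 arrays). The groups lay far apart for their spread, and the log2 fold change was 1.24 with an SE of 0.055 (limma, adjusted P = 9.53e-05). The repressor cry1b had 0.70, 0.64 and 0.68 on Day 4 and -0.20, -0.16 and -0.12 in controls, a log2 fold change of 0.83 (adjusted P = 0.000235).

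All 3 probes for tefa rose. This gene encodes a PAR bZIP transcription factor, a class that carries clock signals to target genes. The log2 fold changes of its probes were 0.68, 0.61 and 1.06, the last from a probe near background on 1 Day 4 array (-2.17, -0.85 and -1.02, against -2.54, -2.47 and -2.48 in controls). The call of this last probe was lost without any 1 of Day 4 replicates 2 and 3 and control replicates 2 and 3 (0.76 to 1.06). The repressor bhlhe40 rose by 0.53 (adjusted P = 0.0189), with 0.37 without Day 4 replicate 1, and its call was also lost without any of the control arrays (0.49 to 0.57). The photolyase-related cry5 passed the background filter on each Day 4 array (-1.81, -1.999 and -2.11) and on 2 of the control arrays (-3.03, -2.54 and -3.20). Its level on Day 4 was at least 1.93-fold higher, with an adjusted P of 0.0016 that also uses the control array that did not pass. The gene cry5 was the only one outside the paper's tables that met the rule for a bound among rises.

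Other clock genes moved the opposite way or did not pass. The cryptochrome cry3b (cry2b in the array design) fell by 0.51 (adjusted P = 0.00288), a call lost without control replicate 3 (-0.44). The activator bmal1a fell, with 1.42, 1.45 and 1.42 on Day 4 against 2.14, 2.07 and 2.08 in controls, and its log2 fold change was -0.67 with an SE of 0.049 (adjusted P = 0.000552). The paralog bmal1b had a log2 fold change of -0.36 and stayed under the fold minimum. Of the other clock members, 2 probes for cry4 gave -0.46 and -0.38, cry1a gave 0.28, and per2, a light-responsive repressor, gave 0.44 with an adjusted P of 0.067. The nuclear receptor rorab, an activator of bmal transcription, had 0.14 and 0.21 on its 2 probes. The median of the clock output list was 0.44 to 0.78 under the other scalings and the background correction.

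Immediate early genes, which respond to stimuli within minutes to hours, were higher as a list. Of 23 genes measured in both groups 22 had a median probe above 0 and 8 rose, none fell, and the median log2 fold change was 0.41. The phosphatase gene dusp5, a feedback inhibitor of ERK, had 1.33, 1.29 and 1.23 on Day 4 and 0.53, 0.40 and 0.40 in controls (log2 fold change 0.84, adjusted P = 0.000181). For cebpb, a transcription factor of inflammation and fat cell formation, the signal was 2.98, 3.02 and 2.99 on Day 4, against 2.05, 2.22 and 2.33 in controls. The orphan nuclear receptor nr4a1 had -0.06, -0.12 and -0.06 on Day 4, against -0.84, -0.88 and -0.79 in controls. These groups did not overlap in any of the 3 genes. The AP-1 subunit junbb rose by 0.73, and 1 of the 2 probes for dusp1, a MAP kinase phosphatase, rose by 0.56 while the other had 0.25. The antiproliferative gene btg2 rose by 0.60, but the call was lost without any 1 of the 6 arrays (0.46 to 0.68). The other 2 that rose, fosab (0.67) and junba (0.75), both AP-1 subunits, are among the transcripts of the paper's tables. The zinc finger gene egr2a was called higher but was well above background on 2 Day 4 arrays, and no fold change is given. Members that were not called included atf3 with 0.43, klf6a with 0.45, ccn1 with 0.47, jun with 0.17 and 0.19 and ier5 with 0.01 and 0.07.

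Heat shock genes were mixed. Of 39 genes of the list measured in both groups 4 rose and 1 fell, and the median log2 fold change was 0.08. By probe, 4 of the 65 measured in both groups rose and 1 fell, beside 3.17% and 1.71% over all such probes. These counts are no result about the list. The transcription factor hsf2, on chromosome 20 (51008717 to 51008776 in danRer2), had 1.93, 1.98 and 2.15 on Day 4, against 0.66, 0.67 and 0.71 in controls. Its log2 fold change of 1.32 (SE 0.062, adjusted P = 0.000121) was larger than that of any other member. The inducible chaperone hsp70.3 had 4.54, 4.28 and 4.33 on Day 4 and 3.47, 3.49 and 3.47 in controls, a log2 fold change of 0.92. The co-chaperone bag3 rose by 0.52. For hsp90ab1, the constitutive cytosolic Hsp90, 1 of 8 probes rose (4.62, 5.11 and 5.12 on Day 4, against 3.86, 3.83 and 3.78 in controls; log2 fold change 1.102). Its other 7 probes ranged between -0.38 and 0.41, and none of them was called, so the probes of this gene disagree.

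The 1 member of the list called lower was the disulfide isomerase pdia4 of the endoplasmic reticulum, which fell by 0.54 (adjusted P = 0.00177), with 1.58, 1.56 and 1.46 on Day 4 against 2.04, 2.05 and 2.09 in controls. Among other members that act there, the probes for pdia6 gave -0.45 and -0.17, those for hsp90b1 -0.38 and -0.28, that for hspa5 (BiP) -0.30 and that for dnajb11 -0.33, and none of these reached the fold minimum. The pdia4 call was lost with scaling at the 50th percentile. Heat shock genes outside the list, named after their values were seen, were also called lower. The small heat shock gene hspb9l was at least 2.25-fold and 2.001-fold lower on 2 overlapping probes, and hsc70 fell by 0.50 on 1 probe and had -0.46 on the other.

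**Figure D3:**
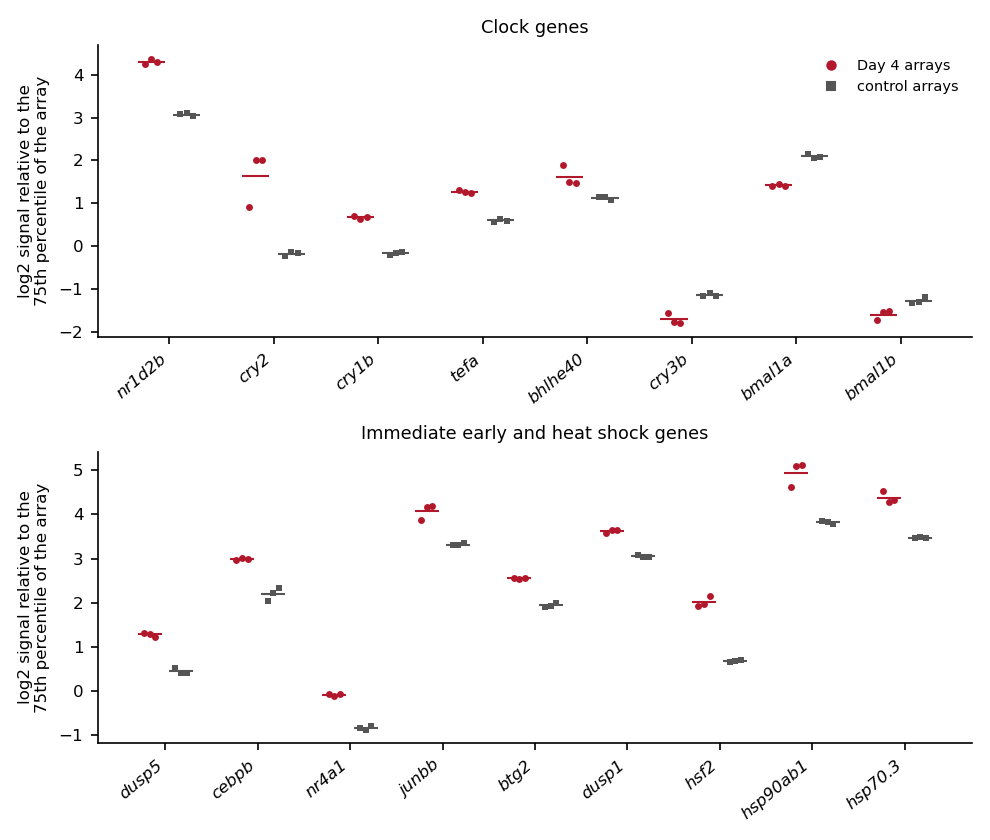
Log2 signal of each array relative to its 75th percentile for clock genes (top) and for immediate early and heat shock genes (bottom), 1 probe a gene. Red circles are the 3 Day 4 arrays, gray squares the 3 control arrays, and lines are group means. For each gene the probe drawn is a called one where there was any, and among these the one with the lowest P. The groups do not overlap for any gene drawn, which this choice favors, and 43.3% of all probes measured in both groups do not overlap. For hsp90ab1 the probe drawn is the only one called. The genes cry3b, bmal1a and bmal1b are lower on Day 4.

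Genes of antigen presentation moved in both directions. Of 17 genes measured in both groups 14 had a median above 0, 2 rose and 2 fell, and the median log2 fold change was 0.27. The class I gene mhc1uba, on chromosome 19 (1654909 to 1654967 in danRer2), had 2.27, 2.30 and 2.33 on Day 4, against 1.27, 1.25 and 1.28 in controls. The log2 fold change was 1.02 (SE 0.041, adjusted P = 6.32e-05), and a second probe gave 0.95. The class I gene mhc1uea had 3.35, 3.27 and 3.20 on Day 4 and 2.37, 2.31 and 2.28 in controls, a log2 fold change of 0.95. The class II gene mhc2dga had -2.25, -1.95 and -2.05 on Day 4, against -0.88, -0.97 and -0.94 in controls (log2 fold change -1.21, adjusted P = 0.000342). A second probe for mhc2dga was well above background on 2 of the Day 4 arrays and was at least 2.39-fold lower. The class II gene mhc2dgb had -1.52, -1.52 and -1.46 on Day 4 and -0.23, -0.36 and -0.37 in controls, a log2 fold change of -1.18. Not all class I genes were higher: hla-ze, a class I gene of the paper's tables that is outside the list, had -0.57, -1.23 and -1.29 on Day 4, against 0.00, -0.06 and -0.10 in controls (log2 fold change -1.13, adjusted P = 0.0424). Class I and II genes of zebrafish are a family of similar and polymorphic loci, and the probes may share targets.

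The shared machinery of presentation had no called member among the genes named here. Beta-2-microglobulin, the light chain of class I, had log2 fold changes of 0.18 and 0.36 on the probes for b2m and of 0.03 and 0.09 on those for b2ml. The class II chaperone cd74a had 0.09, and tapbp.1, which loads peptide onto class I, had 0.29. The inducible proteasome subunits psmb8a and psmb9a had 0.05 and 0.40. None of these was called. Of the 9 genes of the interferon response list measured in both groups 0 were called by limma or, at the same thresholds, by the methods' t-test, which takes each probe alone. An unadjusted P under 0.05 was found for 5 of them, and mxe, irf1b, psmb9a, irf8 and irf7 also passed with adjustment but stayed under the fold minimum. Of all 8032 probes measured in both groups, 1660 passed the adjusted P of limma when no minimum fold was set. Counts at an unadjusted P, here and in the lists below, stand beside a share at least that large.

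Markers of myeloid cells were mostly higher. Of 13 genes measured in both groups 6 rose and 1 fell, 12 had a median above 0, and the median log2 fold change was 0.39. Of the 6, c1qc and mfap4.1 are among the transcripts of the paper's tables. The transcription factor spi1b (PU.1), needed for myeloid cell formation, had -0.11, 0.18 and 0.12 on Day 4, against -0.77, -0.78 and -0.76 in controls (log2 fold change 0.81, adjusted P = 0.00201). A second spi1b probe was not called, with 0.13, 0.22 and 0.21 on Day 4 against -0.19, -0.25 and -2.67 in controls. Lysozyme (lyz) rose on both probes, by 0.62 and 0.70, and the chemokine receptor gene cxcr4b rose by 0.65. The complement gene c1qb, made by macrophages, had 1.95, 2.096 and 2.23 on Day 4 against 1.53, 1.44 and 1.50 in controls. Without control replicate 3 the calls of c1qb (0.53) and of the second lyz probe (0.64) were lost. The macrophage marker mpeg1.1 had 0.35 and the leukocyte actin regulator coro1a 0.39, both under the fold minimum, and 10 probes for apoeb lay between -0.18 and 0.08. The granulin gene grna.2 fell, with -1.88, -1.72 and -1.53 on Day 4 against -0.69, -0.71 and -0.67 in controls, a log2 fold change of -1.04.

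Other leukocyte genes were fewer. Of 5 lymphocyte genes measured in both groups 1 rose, the NK-lysin gene nkl.4 (0.78, lost without control replicate 3 at 0.71), and all 5 had medians above 0. The T cell genes lck and trac had 0.15 and 0.21. Of 7 measured genes of complement and chemokines 3 rose, all of which are also in the myeloid list. Of 34 lysosomal genes measured in both groups 3 rose and 1 fell, with a median of 0.05. Over all probes measured in both groups 3.17% were called higher and 1.71% lower. In lists this short the lymphocyte and lysosome counts are no result about these genes. The proteases ctss1, ctsc and ctsba rose by 0.58, 0.52 and 0.52, and the gene that fell was grna.2, given above. The proton pump subunit atp6v0a1a, well above background on 2 Day 4 arrays, was at least 1.69-fold lower, a call lost without control replicate 3. A second ctsba probe had -0.04, and the ctsba call was lost without control replicate 3 (0.47). The kinase gene jak1 had a log2 fold change of 0.74 on 1 probe and of 0.15 on another.

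Skeletal muscle transcripts were lower. Of 20 fast muscle genes measured in both groups 8 fell and 0 rose, with a median log2 fold change of -0.28. A further 5 genes measured on all control arrays but not on all Day 4 arrays were called lower. Such probes entered the comparison through their control signal alone, and 162 of all 1732 of them were called lower and 22 higher. These 5 are therefore not counted as support for the fall. The muscle parvalbumin pvalb4, a calcium buffer, had -0.76, -0.65 and -0.62 on Day 4, against 0.95, 0.98 and 0.90 in controls. Its log2 fold change was -1.60 (SE 0.057, adjusted P = 3.85e-05). The muscle creatine kinase ckma had -0.38, -0.52 and -0.42 on Day 4 and 1.12, 1.18 and 1.199 in controls (log2 fold change -1.60). The calcium pump atp2a1 had -0.997, -1.06 and -1.03 on Day 4 and 0.62, 0.59 and 0.52 in controls (-1.59). Each of these falls exceeded 2-fold on every array, with no overlap. The creatine kinase ckmb fell by 1.42, the Z-disc protein actn3b by 1.41, the myosin light chain mylpfa by 1.24 and the glycolytic enzyme pgam2 by 1.17. Troponin T (tnnt3b) fell on 5 of 6 tested probes, by 0.78 to 0.90.

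Not every muscle gene followed. Aldolase aldoaa had -0.16 and -0.15, enolase eno3 -0.07, skeletal actin acta1a -0.14, adenylate kinase ak1 between 0.05 and 0.20 on 4 probes, and the troponin I gene tnni2a.4 had 0.16, none of them called. Of 5 slow muscle genes measured in both groups 4 fell, all of them among the transcripts of the paper's tables, and the list median was -1.28. Of those 4, tpm3 and actc1b each had a second probe that was not called (-0.02 and 0.13). The list median is the gene value of tpm3, midway between 2 probes that disagree (-2.535 and -0.02). Myoglobin (mb) had -0.08, 0.12 and 0.14 on 3 probes. The mitochondrial creatine kinase of striated muscle, ckmt2b, had -3.59, -2.72 and -3.90 on Day 4, against -0.82, -0.88 and -0.89 in controls. Only 1 Day 4 array passed the background filter, and ckmt2b was lower by at least 4.08-fold. Its adjusted P of 0.00399 rests in part on signals that did not pass. The growth inhibitor myostatin a (mstna) was at least 2.35-fold lower, with -4.62, -4.22 and -4.94 on Day 4 arrays, none of them well above background. Its control arrays differed (-2.50, -2.36 and -0.71), and its call was lost without control replicate 3 or control replicate 1. In RNA from whole ears, fewer cells of a type and less RNA per cell cannot be told apart. Each group was 1 pool, so the amount of muscle taken along with the ears cannot be separated from group either. The paper states that no surrounding tissue was carried over, except perhaps remains of the auditory nerve. This was not tested here. The fast muscle median was -0.18 to -0.41 and the slow muscle median -0.85 to -1.41 under the other scalings and the background correction.

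**Figure D4:**
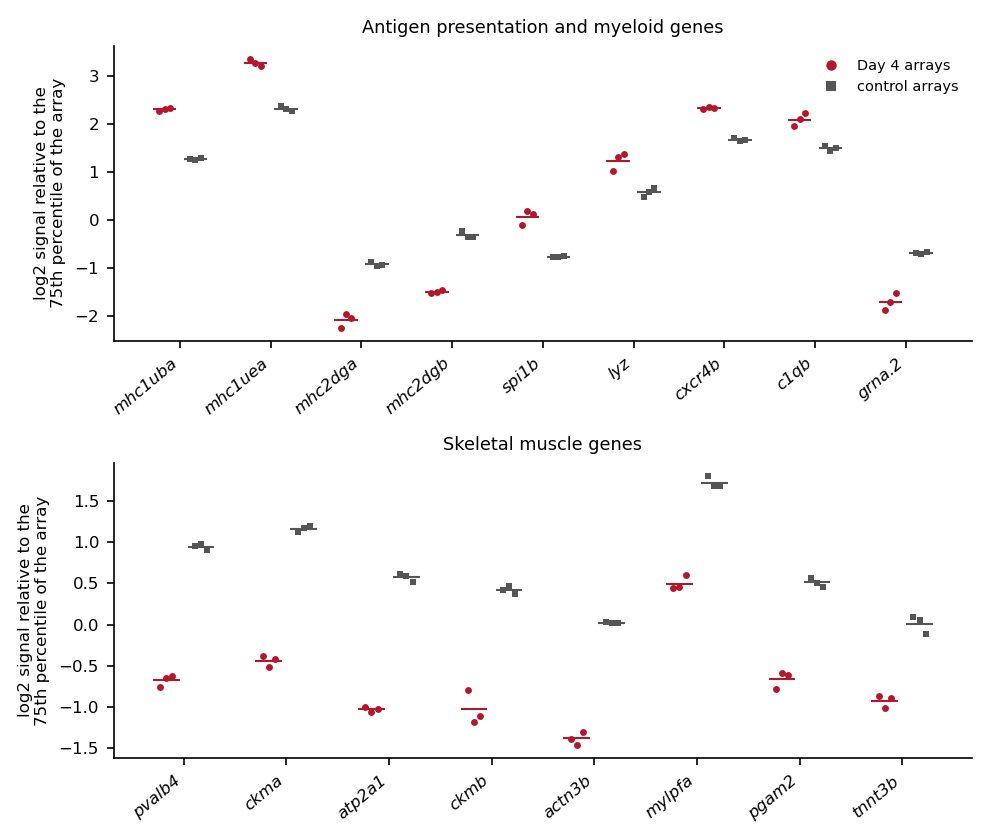
Log2 signal of each array relative to its 75th percentile for genes of antigen presentation and myeloid cells (top) and for skeletal muscle genes (bottom). For each gene 1 probe is drawn, a called one where there was any. Red circles are the 3 Day 4 arrays, gray squares the 3 control arrays, and lines are group means. All 8 muscle genes are lower on Day 4. The class I genes mhc1uba and mhc1uea are higher and the class II genes mhc2dga and mhc2dgb lower.

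Matrix and skeletal genes were lower on balance. Of 25 genes for collagens and matrix glycoproteins measured in both groups 5 fell and 1 rose, 17 had medians below 0, and the median log2 fold change was -0.21. Among the 5 was matn1 (-1.70), a transcript of the paper's tables. It was also 1 of the 2 that fell among 10 measured genes for cartilage and bone. Relative to the control mean, the level of the collagen and matrix list was -0.04, -0.26 and -0.21 on the Day 4 arrays. The difference was -0.06 within slide 1 and -0.22 within slide 3, so this fall was small on Day 4 replicate 1. The cartilage and bone list had -0.20, -0.36 and -0.27 on the Day 4 arrays. Members of both lists are named below. The first chain of type I collagen, col1a1a, had -0.62, -0.99 and -0.91 on Day 4 against -0.05, -0.05 and -0.19 in controls, with -0.68 on this and on a second probe. Its partner col1a2 fell by 0.50, a call lost without Day 4 replicate 1 (-0.43) or control replicate 3 (-0.52). The tendon glycoprotein thbs4b fell by 0.61, lost without control replicate 3 (-0.55). Osteonectin (sparc), which is also a matrix protein of the otolith, fell by 0.52 on 1 probe and had -0.09 on the other, and the call was lost without Day 4 replicate 3 or control replicate 3. Osteopontin (spp1), a bone matrix protein, had 0.55, 0.26 and 0.29 on Day 4 against 1.35, 1.37 and 1.36 in controls, a log2 fold change of -0.97. The hyaluronan link protein hapln3 rose by 0.59, lost without control replicate 3 (0.56). The cartilage genes col9a1b, col9a2 and cnmd were between -0.38 and -0.26 and were not called, and of the 7 measured matrix proteases and inhibitors 0 were called by limma or the methods' t-test, while 3 had an unadjusted P under 0.05. Among these mmp9, which rises in many fish tissues after injury, had -0.02 and 0.04.

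Glial and neural markers changed in a few members. Glial fibrillary acidic protein (gfap), a filament of astroglia and radial glia, fell on all 3 tested probes, 2 of them at the same position, by 0.69 to 0.87. On the first probe the signal was -0.97, -1.07 and -0.98 on Day 4, against -0.05, -0.21 and -0.19 in controls. The oligodendrocyte factor olig2 was well above background on 2 Day 4 arrays for each of 2 overlapping probes and was at least 1.85-fold and 1.63-fold lower. The myelin protein plp1b fell by 0.50 on 1 probe and had -0.42 on the other, and the call was lost without Day 4 replicate 3 or control replicate 3. In contrast mpz, the main protein of peripheral myelin, had 0.17 and 0.21, and its regulator egr2b had 0.24. Among neuronal genes elavl3 fell by 0.69 on 1 probe (lost without control replicate 3, -0.57) and had 0.31 on another. The gene neurod1, well above background on 2 Day 4 arrays, was at least 1.849-fold lower. The olig2 and neurod1 probes entered the comparison through their control signal alone. Of all 1732 probes of that kind 162 were called lower, so these bounds are not counted as support for a fall of glial or neural genes. The axonal growth protein gap43 stayed between -0.01 and 0.01 on 3 probes, and the synaptic genes snap25b, syt1a and vamp2 lay between 0.01 and 0.37, none of them called. The medians of the myelin (-0.02) and neuron (0.07) lists changed sign with the scaling.

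Blood, liver-type and pituitary transcripts were checked because such RNA can come with dissected tissue. Of 6 erythroid genes 2 fell, the globin hbaa1 (2.02, 1.99 and 2.06 on Day 4, against 2.69, 2.74 and 2.74 in controls; log2 fold change -0.70) and the anion exchanger slc4a1a (-0.67). The beta globins hbba1 and hbba2 had -0.02 and -0.03, so the globin probes disagreed. Of 5 liver and yolk protein genes measured in both groups 1 rose and 1 fell. This list left out probes that the array design names vg1, because the naming step gave them the symbol gdf3. They matched transcripts of the paper's tables, which list vitellogenin 1 and no gdf3. Measured on all control arrays only, the called ones were lower, with bounds of 1.54-fold to 4.255-fold. The list counts therefore do not cover all yolk transcripts. Transferrin (tfa), the iron carrier of plasma and one of the transcripts of the paper's tables, rose by 1.49, and ceruloplasmin (cp), a copper-carrying plasma protein, fell by 1.01. Of 9 pituitary genes on the array 3 were tested, and all 3 were higher. Their probes are among the transcripts of the paper's tables. Only 1 of their 4 tested probes was measured in both groups, and the others on all arrays of 1 group only. Over all tested probes, 6 of the 7 measured on all Day 4 arrays only were called higher. The count of 3 is therefore not taken as a result. For the 1 pituitary gene measured in both groups, the level relative to the control mean was 3.30 to 3.54 on Day 4 arrays and -0.05 to 0.04 on control arrays. The list levels of slow muscle on the same scale were -1.32 to -1.16 on Day 4 and -0.00 to 0.01 in controls. The part of muscle or pituitary RNA in the other results was not tested.

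Several metabolic genes were among the largest changes. Homogentisate dioxygenase (hgd), an enzyme of tyrosine breakdown, had 0.28, 0.29 and 0.30 on Day 4, against -1.01, -1.05 and -1.06 in controls. Its log2 fold change was 1.33 (SE 0.041, adjusted P = 2.55e-05), and a second probe at the same position gave 1.304. Retinol binding protein rbp2a rose by 1.104. Alcohol dehydrogenase adh8a had 0.92, 0.93 and 1.02 on Day 4, against -0.19, -0.17 and -0.10 in controls, and its second probe rose by 1.23. Lipoprotein lipase (lpla), which releases fatty acids from plasma lipoproteins, had 2.19, 2.28 and 2.25 on Day 4 and averaged 1.15 ± 0.048 in controls (SD, n = 3 arrays), a log2 fold change of 1.08. The glutathione S-transferase gstm.1 rose by 1.05, the purine nucleoside phosphorylase pnp5a by 1.16 and the ankyrin repeat gene ankrd9 by 0.99. Of 25 measured genes of sterol and fatty acid synthesis and handling 3 rose (lpla, acsl4a and acsl4b) and the desaturase fads2 fell by 0.67 on 1 of 5 probes, while its other probes lay between -0.36 and -0.01. The acyl-CoA synthetase acsl4b rose by 0.71 on 1 probe and had 0.45 on the other, and the call of acsl4a (0.65) was lost without any array other than Day 4 replicate 2.

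Other large falls were those of nme2b.2, slc25a4 and vtn. The nucleoside diphosphate kinase nme2b.2 had 2.14, 2.57 and 2.52 on Day 4, against 3.83, 3.84 and 3.84 in controls (log2 fold change -1.45, adjusted P = 0.00055). The mitochondrial ATP/ADP carrier slc25a4, the form most abundant in muscle and heart, had -1.49, -1.49 and -1.51 on Day 4 and -0.13, -0.16 and -0.15 in controls (-1.35). A second slc25a4 probe, which overlaps the first, had -1.41. Vitronectin (vtn), a plasma and matrix protein, had -1.92, -1.42 and -1.90 on Day 4 and -0.51, -0.64 and -0.68 in controls (-1.13). The tetraspanin tspan37 and the transporter slc22a7b.1 were measured on all arrays in controls only. The tetraspanin tspan37 was well above background on none of the Day 4 arrays (-4.59, -4.36 and -4.44), against -1.61, -1.43 and -1.44 in controls. It was lower by at least 3.02-fold. Its adjusted P of 8.36e-06 rests on Day 4 signals that were not well above background, so it does not test this bound. The organic anion transporter slc22a7b.1 was at least 2.58-fold lower.

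Genes of the sensory epithelium were set against the 4.88% of probes called among all those measured in both groups. At that share few calls are to be had in lists this short, and the counts below are no result about these genes. Nor are the counts at an unadjusted P, here and below. Of all 8032 probes measured in both groups, 1660 passed even the adjusted P of limma when no minimum fold was set. Of 5 hair cell markers on the array, myo7aa, the unconventional myosin of stereocilia, had a log2 fold change of 0.27 and the hair cell determinant atoh1a -0.05. Neither was called by limma or the methods' t-test, 1 of them had an unadjusted P under 0.05, and otofa and cdh23 were above background on no array of either group. Among otolith and tectorial matrix genes, stm (starmaker) had 0.05, tectb -0.05 and 0.14, and the proton channel otop1 0.52 with an adjusted P of 0.0657. Of 17 ear patterning factors measured in both groups 0 were called by either test, 9 had an unadjusted P under 0.05, and the values ran from -0.37 (tbx1) to 0.20. On a probe measured on all control arrays only, 1 gene of these factors was called lower, beside 162 of all 1732 probes of that kind. The Notch ligand jag1a, well above background on 2 Day 4 arrays, was at least 1.73-fold lower. Its adjusted P of 0.00361 also uses the Day 4 array that did not pass. The paralog jag1b had 0.02 and 0.38. Of 10 measured Notch genes 0 were called by either test and 2 had an unadjusted P under 0.05. For ion transport of the endolymph, 0 of 17 measured genes were called by either test and 10 had an unadjusted P under 0.05. On probes measured on all control arrays only, 2 genes of this list were called lower, again beside 162 of all 1732 such probes. In this list the chloride cotransporter slc12a2 had 0.15 and the sodium pump gene atp1a1b -0.43. The parvalbumin pvalb7 fell by 0.69 and 0.66 on 2 probes, while pvalb8 had 0.05 and 0.10.

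Genes of cell division and of general cell functions had counts of calls near the same background of 4.88% of probes. Of 17 measured genes for DNA replication and mitosis 0 were called by limma or the methods' t-test and 6 had an unadjusted P under 0.05, and gene medians lay between -0.18 and 0.26 around a list median of -0.04. The replication clamp pcna had -0.04 on the probe measured in both groups and the helicase subunit mcm7 had 0.26 on both probes. Among 23 measured genes of G1 regulation 2 rose, btg2 and the cyclin ccng2 (0.66), while the Cdk inhibitor cdkn1bb lay between 0.22 and 0.35. In the growth hormone and IGF list igfbp5b rose by 0.49, a call lost without Day 4 replicate 2 or control replicate 3, and igf1rb, an IGF receptor, had 0.33. The gene igf2a, well above background on 2 Day 4 arrays, was at least 1.499-fold lower. Of 9 measured tubulins 0 were called by either test and 4 had an unadjusted P under 0.05. Of 69 measured ribosomal protein genes 1 rose and 1 fell, although 63 had medians above 0. Their list level was -0.09, 0.29 and 0.33 on the Day 4 arrays and -0.07, 0.06 and 0.02 on the control arrays, with a difference of -0.01 within slide 1 and of 0.29 within slide 3. The variant rps27.2 fell by 1.12, with 4.83, 5.26 and 5.28 on Day 4 against 6.11, 6.30 and 6.26 in controls. Of 53 measured respiratory chain genes 2 fell (sdha and ndufs1) and 1 rose (ndufv1), each on 1 probe, and all 3 calls were lost without control replicate 3 and at least 1 other array.

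**Figure D5:**
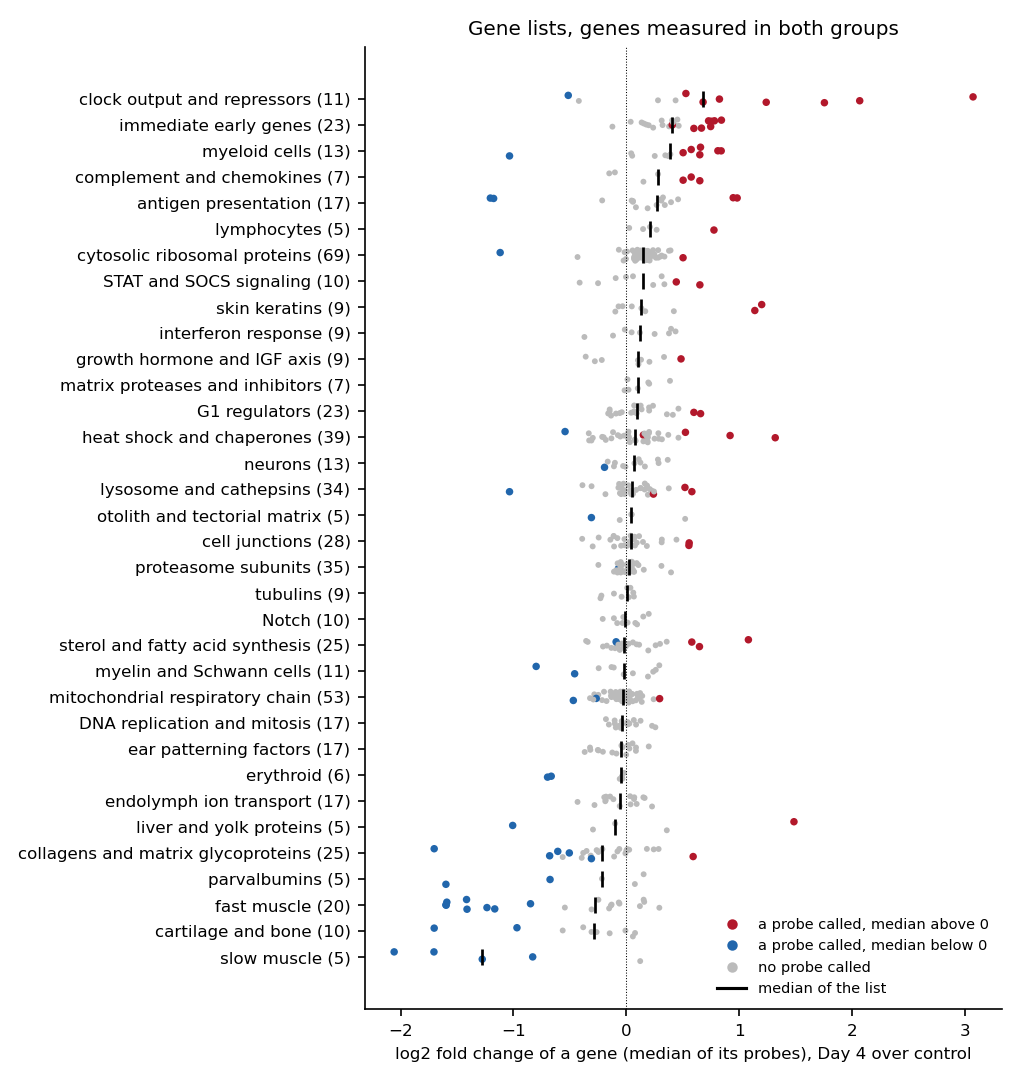
Log2 fold change (Day 4 over control) of each gene, as the median of its probes measured in both groups, for lists with at least 5 such genes (number in brackets). Red and blue points have at least 1 called probe, gray points have none, and black bars are list medians, from -1.28 for slow muscle to 0.68 for clock output and repressors.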

How the data were processed

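Per the file headers, the authors deposited spot intensity values from Feature Extraction 9.5.1.1 (build danRer2), in which background and spatial trends had been removed within each array and nothing had been scaled between arrays. They also deposited tables of group means, fold changes and P-values, which were not used. After removal of control spots and outlier spots, each log2 intensity was set against the 75th percentile of its array, and the 2 spots of a probe were averaged. The model, with group and slide, was fitted with limma 3.58.1 (lmFit, eBayes) in R 4.3.3, and was tested on simulated data. Correlations of deviations were 0.095, 0.015 and 0.12 for arrays of the same number, and -0.12 to 0.061 for those of different number. Arrays numbered 1, and those numbered 3, also shared a slide, so number and slide cannot be told apart there. A bound (at least N-fold) sets the brighter group's mean against a floor for the dimmer group: on each of its arrays, the probe's own signal or the lowest signal well above background, whichever was higher. It is no confidence limit. A P-value printed beside a bound comes from all signals of the probe, including those not well above background, and does not test the bound. RefSeq for GRCz12tu named 10372 probes, and 11123 kept the file's name. Of called, non-overlapping probes with a symbol and not in the paper's tables, the text names some, with 1 probe a gene. These are the 12 largest rises and falls measured in both groups, up to 5 bounds each way and called members of lists. Not every called member of the 38 lists is named. Single genes that were not called are named as list members. The members and lists were chosen with earlier results of these data known, and lists got no test. The number of arrays limits the precision. Tables and plots were made with pandas 2.3.3, numpy 2.4.6 and matplotlib 3.10.9 in Python 3.11.15. The alternatives covered scaling, background correction, filter, slide, test and each array left out.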

Additional observations from a re-analysis of the deposited data

How the results depend on the processing

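Of 137 named or list probes, 0 changed sign in 26 settings, 120 kept their call under 3 other percentile or quantile scalings, and 103 with each array left out in turn. All 34 others lost it without control replicate 3. With normexp 136 lost it, and the cause was not tested. The total of 582 probes (283 higher, 299 lower, 392 measured in both groups) became 887 (551 higher) with the 50th percentile, 290 (153, 137 and 198) without a filter on low signal, where more probes enter the adjustment, 330 (178, 152 and 253) with only the 6 arrays compared, and 2 (1, 1 and 2) with normexp. It became 291 (97, 194 and 204) with scaling to the spike-in controls, chosen after seeing the data, and 1965 (1041, 924 and 1660) with no minimum fold change. With only probes well above background in both groups 138 were lower, and 66.1% were higher. The methods' t-test gave 600 probes unpaired without adjustment and 394 after Benjamini-Hochberg adjustment (185 lower). Paired by replicate number it gave 468 and 4 (3 higher, 1 lower, 2 measured in both groups). Leaving out 1 array gave 326 to 1174 probes, 175 to 491 higher, 151 to 683 lower and 254 to 689 measured in both groups, lowest without control replicate 3 and highest without Day 4 replicate 1. With the replicate block in place of the slide 670 were called, without slide 684, and with the slide as a random block 686. The share of spots above background, lowest at 39.5% on Day 4 replicate 2, limits what is measured on Day 4.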
